A study of Mus musculus with 6 samples.

Results

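Annexins are calcium-dependent proteins that bind acidic phospholipids on the inner face of cell membranes. Each carries a conserved core of annexin repeats, which holds the calcium sites, and an amino-terminal tail that differs between members and binds their partners. They take part in membrane traffic, membrane repair, the joining of membranes to actin and, outside the cell, in inflammation and in fibrinolysis. Annexins A1 and A3 are familiar from myeloid cells, A4 and A13 from epithelia, and A2, A5 and A6 from mesenchyme and many other tissues.

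The annexins were taken as the probe sets whose gene symbol was Anxa1, Anxa2, Anxa3, Anxa4, Anxa5, Anxa6, Anxa7, Anxa8, Anxa11 or Anxa13. This gave 20 probe sets of 45101 on the array, for 9 of the 10 genes and of 20677 genes with a probe set of their own. The exception was Anxa11: its 1 probe set also names the predicted genes Gm2260 and Gm2274, so its values are given once and enter no count. Anxa3, Anxa5 and Anxa13 had 1 probe set each, so no second probe set can be set beside their values.

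RNA came from embryonic mouse liver. All 6 groups share the strain C57Bl6, a wild type genotype and the age E12.5. The groups were liver cells, cells positive for the adhesion molecule ALCAM, and 4 fractions of ALCAM+ cells: those with (PDPN+) or without (PDPN-) the surface glycoprotein podoplanin, and those with (ITGA8+) or without (ITGA8-) integrin alpha 8. Each group was measured on 1 Affymetrix Mouse Genome 430 2.0 array. How many embryos went into a sample is not given in the sources used here. With 1 array per group no test, SD or standard error can be given, and each difference is between 2 arrays.

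Values are probe set intensities on a linear scale. Differences are given as differences of log2(intensity + 16), and folds are on that scale, which understates the change of low genes. An intensity of 109, the median of all probe set values, served as the floor: a gene entered a comparison when the higher of its 2 values exceeded it, and was counted when the difference reached 2-fold. The median intensity was 42 in liver, 66 in ALCAM+ cells and 123 to 200 in the 4 fractions, so the first 2 arrays are on a lower scale and intensities are not compared between them and the fractions. The sorted antigens followed the labels: Alcam was at 13425 in ALCAM+ and 3207 in liver, Pdpn at 7746 in PDPN+ and 117 in PDPN-, and Itga8 at 4354 in ITGA8+ and 871 in ITGA8-.

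Markers of other cells differed widely among the fractions. The summed intensity of 12 mesothelial markers was 1462 in PDPN-, 16678 in ITGA8+, 43125 in ITGA8- and 57296 in PDPN+. That of 10 megakaryocyte markers was 329 in PDPN- and 16533 to 38717 in the others, so PDPN- was far below the rest for both lists. For myeloid cells PDPN+ was far above the rest. The sum of 10 macrophage markers was 579 in PDPN-, 3277 in ITGA8+, 1439 in ITGA8- and 37890 in PDPN+, and that of 9 neutrophil markers was 127, 2740, 1802 and 31433 in the same order. Each of these sums was higher on the PDPN+ array than on the PDPN- array. So were the erythroid sum, at 8079 against 7469, and the endothelial sum, at 5011 against 1257. The sums of 12 hepatoblast and 12 stellate markers were lower in PDPN+, at 188334 against 238990 and 23487 against 27679. Past 2-fold, 0 hepatoblast markers were higher in PDPN+ and 1 was lower, and 2 stellate markers were higher and 2 lower. Of the annexins past 2-fold between those arrays, Anxa1 and Anxa3 went the way of the sums higher in PDPN+. Anxa4 and Anxa13 went the way of the sums lower in PDPN+. The part of these sums in the annexin differences was not tested. In RNA from sorted pools, fewer cells of a type and less RNA per cell cannot be told apart.

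Promoters were matched by symbol for 7 of the 10 annexins, all but Anxa3, Anxa6 and Anxa13. Those of 4 are shown: Anxa1, highest in PDPN+ cells, Anxa4 and Anxa7, both highest in PDPN- cells, and Anxa2, which stayed close to level. Each is the 250 bases before a RefSeq start site on GRCm38.p6, read 5′ to 3′ on the strand of the gene. They lie at chr19:20390672-20390921 on the minus strand for Anxa1, chr9:69453433-69453682 on the plus strand for Anxa2, chr6:86793585-86793834 on the minus strand for Anxa4, and chr14:20479942-20480191 on the minus strand for Anxa7. Anxa4 and Anxa7 have a further start site each in the RefSeq table, not printed. Capitals mark matches, on either strand, to 6 motifs that do not overlap one another here. They are the TATA box motif TATAAA, the CCAAT box motif spelled as its name, the GC box motif GGGCGG, the TEAD factor motif CATTCC, the AP-1 motif TGANTCA and the glucocorticoid receptor half-site AGAACA.
Anxa1: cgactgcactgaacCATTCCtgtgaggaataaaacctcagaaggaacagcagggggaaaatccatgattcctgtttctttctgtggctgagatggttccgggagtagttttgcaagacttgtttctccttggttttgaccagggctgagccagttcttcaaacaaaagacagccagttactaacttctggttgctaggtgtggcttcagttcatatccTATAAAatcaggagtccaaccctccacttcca
Anxa2: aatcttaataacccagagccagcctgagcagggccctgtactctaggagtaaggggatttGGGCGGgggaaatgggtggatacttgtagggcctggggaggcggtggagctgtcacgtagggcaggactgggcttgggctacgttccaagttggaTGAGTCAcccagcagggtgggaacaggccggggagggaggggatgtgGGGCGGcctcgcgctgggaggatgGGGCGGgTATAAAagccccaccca
Anxa4: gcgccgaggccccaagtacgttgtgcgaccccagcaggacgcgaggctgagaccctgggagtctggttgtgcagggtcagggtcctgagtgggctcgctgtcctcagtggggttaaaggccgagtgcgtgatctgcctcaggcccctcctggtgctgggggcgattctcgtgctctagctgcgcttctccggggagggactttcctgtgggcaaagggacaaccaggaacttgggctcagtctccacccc
Anxa7: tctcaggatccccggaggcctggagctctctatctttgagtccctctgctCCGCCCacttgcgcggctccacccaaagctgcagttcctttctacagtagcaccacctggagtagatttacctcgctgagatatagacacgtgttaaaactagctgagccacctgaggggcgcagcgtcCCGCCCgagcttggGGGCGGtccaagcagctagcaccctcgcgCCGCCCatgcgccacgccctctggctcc

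The Anxa1 window held a TATA box motif that begins at position -32 from the start and a TEAD motif that begins at -236, and 2 CpG dinucleotides, a count at the 29.0 percentile of 32851 promoter windows of the same length. The Anxa2 window held a TATA box motif, 3 GC boxes, an AP-1 motif and 9 CpGs. The printed Anxa7 window held 4 GC boxes and 16 CpGs, and the printed Anxa4 window none of the 6 motifs and 13 CpGs. The windows of their further start sites differed. That of Anxa4 held 2 glucocorticoid receptor half-sites and 2 CpGs, and that of Anxa7 1 GC box and 2 CpGs. Over all windows the median was 6 CpGs. The TATA box motif was found in 12.4% of them, the GC box in 32.7%, the TEAD motif in 12.6%, the AP-1 motif in 6.75%, the glucocorticoid receptor half-site in 16.1% and the CCAAT box in 33.8%. A match describes the letters in the window and is not a measured binding site.

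Between PDPN+ and PDPN- cells the annexins went both ways. Anxa1 and Anxa3 were higher in PDPN+ cells, by 5.13-fold and 10.4-fold, and Anxa4 was higher in PDPN- cells, by 2.04-fold. Anxa13 was also higher in PDPN- cells, with 310 against 2, a fold whose size depends on the pseudocount. Anxa2, Anxa5, Anxa6 and Anxa7 were within 2-fold and Anxa8 was below the floor. Among all 13428 genes above the floor, 19.9% were 2-fold higher in PDPN+ and 7.89% were 2-fold lower, so 2 and 2 of 8 annexins are counts too small to set apart from that background. The median size of the difference, whatever its sign, was 0.95 log2 over the 8 annexins and 0.52 over all genes tested.

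**Figure D1:**
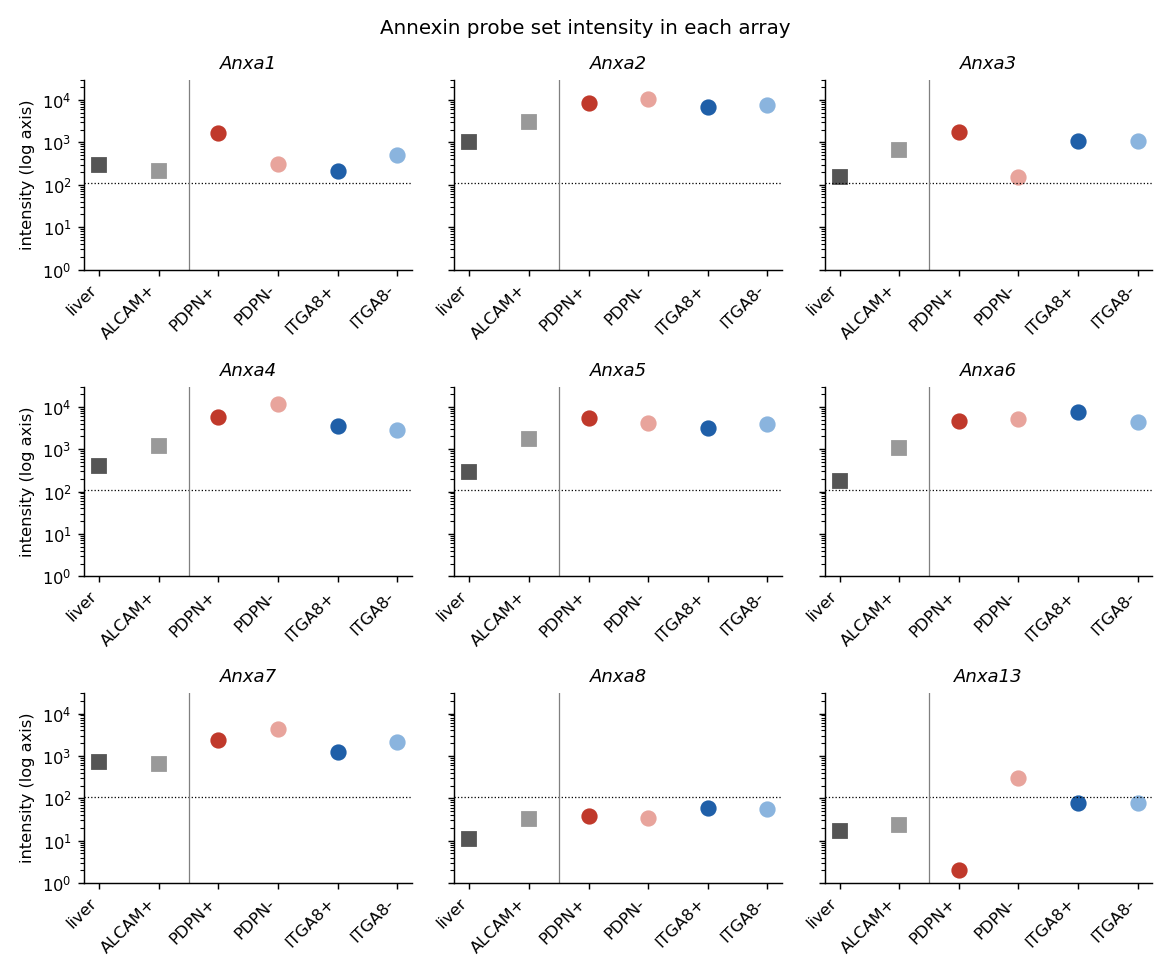
Intensity (log axis) of the representative probe set of each of 9 annexins in the 6 arrays, 1 point per array; squares left of the vertical line are the liver and ALCAM+ arrays, on a lower scale, circles are the 4 fractions, and the dotted line is the floor of 109. Anxa1 stands out in PDPN+, Anxa3 drops in PDPN-, Anxa13 passes the floor in PDPN- alone among the fractions, Anxa8 lies below it in all 4, and Anxa2 and Anxa5 are nearly level across the fractions.

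Anxa1 encodes annexin A1, which limits inflammation through formyl peptide receptors. Its intensity was 1667 in PDPN+ and 312 in PDPN-, with 211 in ITGA8+ and 494 in ITGA8-. It was thus well above the other 3 fractions in PDPN+ cells alone, and the PDPN+ value was 7.41-fold that of ITGA8+. The 5.13-fold difference within the PDPN sort was at the 93.0 percentile of signed differences over all genes. The second Anxa1 probe set read 20 to 57 in the fractions, below the floor in all of them; with the mean of both, the difference in the PDPN sort was 1.39 in place of 2.36 log2. The 3 genes whose centred log2 profile over the 4 fractions was nearest to that of Anxa1 were Siglece, a lectin receptor of myeloid cells, at a distance of 0.16 log2, 4930456J16Rik at 0.24, and Lcp1, the actin-bundling protein L-plastin of leukocytes, at 0.27. Lcp1 was at 5595 in PDPN+ and 1105 in PDPN-, with 943 in ITGA8+ and 1762 in ITGA8-. In the same order Siglece read 137, 17, 8 and 35, and 4930456J16Rik 164, 13, 4 and 35. Both passed the floor in PDPN+ alone, so their nearness rests on values close to background.

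Anxa3 encodes annexin A3, which is known from neutrophils and is also made by other cells. Its single probe set read 1757 in PDPN+ and 154 in PDPN-, and 1060 in ITGA8+ and 1100 in ITGA8-. The PDPN+ and both ITGA8 values lay within 1.65-fold of each other, and the PDPN- value was just above the floor. The nearest profiles were those of 5031426D15Rik, at 0.10 log2, Calhm6, at 0.12, and Tram1l1, at 0.18. Of the 9 neutrophil markers, 8 were above the floor in PDPN+ cells and 0 in PDPN-, and 1 was in each ITGA8 fraction. The marker above the floor in 3 fractions was Mpo, the myeloperoxidase gene, at 1553 in PDPN+ and 1 in PDPN-. It was at 2532 in ITGA8+ and 1618 in ITGA8-, lowest in PDPN- as Anxa3 was. The other neutrophil markers did not share this profile: all were below the floor in both ITGA8 fractions, with S100a8 at 8407, 16, 17 and 25. The megakaryocyte sum was also lowest in PDPN-, at 32464, 329, 38717 and 16533 in the same order. The part of these markers in the Anxa3 values was not tested.

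Anxa13 encodes a myristoylated annexin of gut and kidney epithelium, regarded as the member nearest to the ancestor of the vertebrate family. Its intensity was 2 in PDPN+ and 310 in PDPN-, with 78 in ITGA8+ and 77 in ITGA8-. PDPN- was the only fraction above the floor. By rank within its array the probe set lay at the 58.2 percentile in PDPN- and the 3.82 in PDPN+. It was at the 33.7 and 33.0 in ITGA8+ and ITGA8-, and at 28.5 in liver and 28.9 in ALCAM+. The difference of -4.18 log2 lay at the 0.0149 percentile of signed differences over all genes, but its size depends on the pseudocount because the PDPN+ value is near 0: it was -6.70 with a pseudocount of 1 and -2.50 with 64. Tmem130 was the nearest profile, at 0.38 log2, with 4, 429, 85 and 72 in PDPN+, PDPN-, ITGA8+ and ITGA8-. Foxq1, a forkhead transcription factor gene, followed at 0.84 and Klrb1a, a lectin receptor gene of natural killer cells, at 0.91. In the same order Foxq1 read 20, 271, 106 and 111, and Klrb1a 1, 147, 25 and 26. Klrb1a passed the floor in PDPN- alone, and only just.

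Anxa4, which encodes an annexin of secretory epithelia, had 3 probe sets, all above the floor in the 4 fractions. The most intense read 5663 in PDPN+ and 11544 in PDPN-, with 3578 in ITGA8+ and 2883 in ITGA8-. The others read 793 and 548 in PDPN+, and 2163 and 1831 in PDPN-. All 3 were higher in PDPN- cells, with PDPN+ minus PDPN- at -1.03, -1.43 and -1.71 log2. The first is close to the 2-fold limit: it was -0.93 under quantile normalisation, while the mean of the 3 probe sets gave -1.39. The last, at -1.71, is of a kind whose probes can match other sequences, here and in each comparison below.

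Anxa7 encodes annexin A7, or synexin, which promotes the fusion of secretory granule membranes. Its representative probe set read 2317 in PDPN+ and 4260 in PDPN-, with 1222 in ITGA8+ and 2110 in ITGA8-. A second read 2746, 4213, 986 and 1742 in the same order, so both put PDPN- highest and ITGA8+ lowest. Their PDPN differences were -0.87 and -0.61 log2, inside the 2-fold limit, and the third, weaker probe set was at 0.20. Of the pairs of annexins above the floor, Anxa2 with Anxa5 had the nearest profiles over the fractions, at 0.51 log2, then Anxa2 with Anxa7 at 0.80 and Anxa4 with Anxa7 at 0.86.

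**Figure D2:**
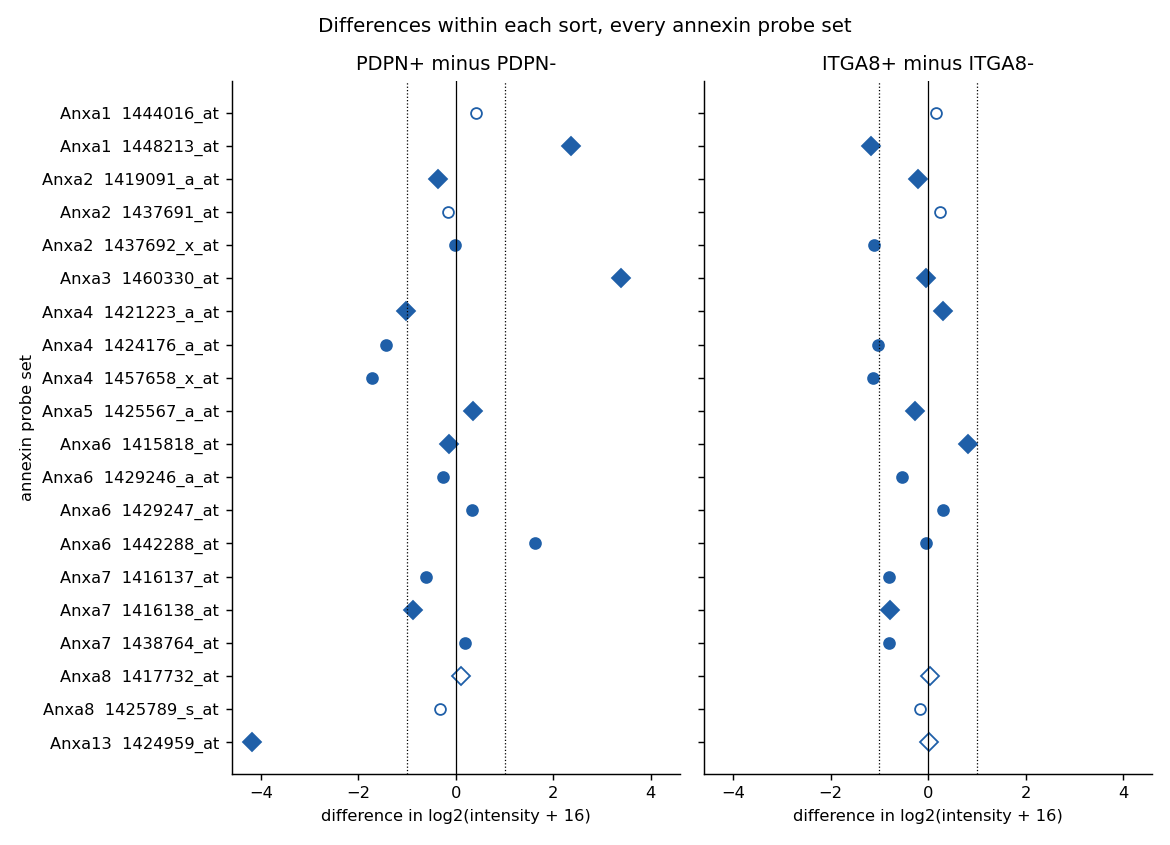
Difference in log2(intensity + 16) for each of the 20 annexin probe sets, PDPN+ minus PDPN- on the left and ITGA8+ minus ITGA8- on the right; diamonds are the probe sets that represent their gene, open symbols were below the floor in both arrays, and dotted lines mark 2-fold. The 3 Anxa4 probe sets lie left of 0 in the PDPN sort and on both sides of 0 in the ITGA8 sort.

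By probe set, 16 of the 20 were above the floor in the PDPN sort. Of these 3 were 2-fold higher in PDPN+, for Anxa1, Anxa3 and Anxa6, and 4 were lower, for Anxa13 and Anxa4. Over all probe sets above the floor the shares were 18.7% and 7.67%. The Anxa6 probe set among them read 701 in PDPN+ and 216 in PDPN-, while the 3 others of that gene were between -0.27 and 0.34 log2. Probe sets of 1 gene can lie in different exons or transcript ends, and the sources used here do not give their positions.

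The annexins of broad expression varied least. Anxa2 encodes annexin A2, which binds S100A10 in a complex at the cell surface and at actin-bearing membranes. It read 8303 in PDPN+ and 10648 in PDPN-, with 6752 in ITGA8+ and 7792 in ITGA8-, a span of 1.58-fold between the lowest and the highest. Anxa5, whose product binds phosphatidylserine exposed on dying cells, read 5396, 4252, 3157 and 3830 in the same order, a span of 1.71-fold. Both lay at the 87.6 percentile of probe sets or higher in all 4 fractions, and the order of fractions within such spans cannot be resolved with 1 array each. Over all 14503 genes above the floor in a fraction the median span was 2.24-fold, and it was 3.72-fold over the 8 annexins. A span of 4-fold or more was found for 3 annexins, Anxa1, Anxa3 and Anxa13, and for 24.1% of all genes; Anxa4 was just below it at 3.99-fold.

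Anxa6 encodes a large annexin with a duplicated core, known for its links to cholesterol-rich membranes and endocytosis. Its most intense probe set read 4520 in PDPN+ and 5005 in PDPN-, with 7531 in ITGA8+ and 4285 in ITGA8-, highest in ITGA8+ cells. A second probe set read 2621, 3160, 1561 and 2281, lowest in ITGA8+ cells. The remaining probe sets read 413, 323, 333 and 268, and 701, 216, 391 and 405. The probe sets of Anxa6 therefore did not give 1 direction for the ITGA8 sort: their differences were 0.81, -0.54, 0.30 and -0.05 log2.

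Anxa8, which is known from squamous epithelia, was at 34 to 58 in the fractions by its stronger probe set and at 7 to 21 by the other, below the floor in each; by rank the stronger lay between the 17.8 and 34.9 percentile in the 6 arrays. The probe set shared by Anxa11 and the 2 predicted genes read 217 in PDPN+ and 259 in PDPN-, with 187 in ITGA8+ and 155 in ITGA8-, with 39 in ALCAM+ and 12 in liver. Annexin A11 links RNA granules to lysosomes. Its differences were -0.24 log2 in the PDPN sort and 0.25 in the ITGA8 sort. Of the family members outside the 10, Anxa9 read 63 in PDPN+ and 211 in PDPN-, with 227 in ITGA8+ and 189 in ITGA8-, so that it was lower in PDPN+ than in the other 3 fractions. Anxa10 was at 27 or less in every fraction.

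Between ITGA8+ and ITGA8- cells most annexins were close. By the representative probe sets Anxa1 alone passed 2-fold, and it was 2.25-fold lower in ITGA8+ cells, with 211 against 494. Of the 7 annexins above the floor in this sort 0 were 2-fold higher and 1 was lower, against 5.36% and 5.98% of 13874 genes. The median size of the difference was 0.31 log2 over those 7 and 0.40 over all genes tested. The Anxa1 difference was -0.96 under quantile normalisation and -0.50 with the mean of both its probe sets, 1 of them below the floor, so that the call was lost under each. Mesothelial markers moved the same way, with a sum of 16678 in ITGA8+ and 43125 in ITGA8-. The other way went the sums of megakaryocyte markers, at 38717 and 16533, stellate markers, at 45394 and 25936, and macrophage markers, at 3277 and 1439. The hepatoblast, erythroid and neutrophil sums were also higher in ITGA8+, and the endothelial sum was 7077 and 7191. The part of these lists in the Anxa1 difference was not tested.

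Anxa3 read 1060 in ITGA8+ and 1100 in ITGA8-, a difference of -0.05 log2 that was 0.10 under quantile normalisation. Its value in the ITGA8 sort was thus level where the PDPN sort gave 10.4-fold. Anxa7 was lower in ITGA8+ cells in its 3 probe sets, at -0.78, -0.81 and -0.80 log2, all inside the 2-fold limit. The Anxa4 probe sets disagreed: the most intense was at 0.31, and the others, at 133 against 289 and 141 against 326, were at -1.03 and -1.12. By probe set, 0 of 15 above the floor were 2-fold higher and 4 were lower, for Anxa1, Anxa2 and Anxa4, against 4.29% and 8.06% of all probe sets. The Anxa2 probe set among the 4 was a weak one, with 66 in ITGA8+ and 160 in ITGA8-. Its probes, and those of the Anxa4 probe set at -1.12, are of a kind that can match other sequences.

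**Figure D3:**
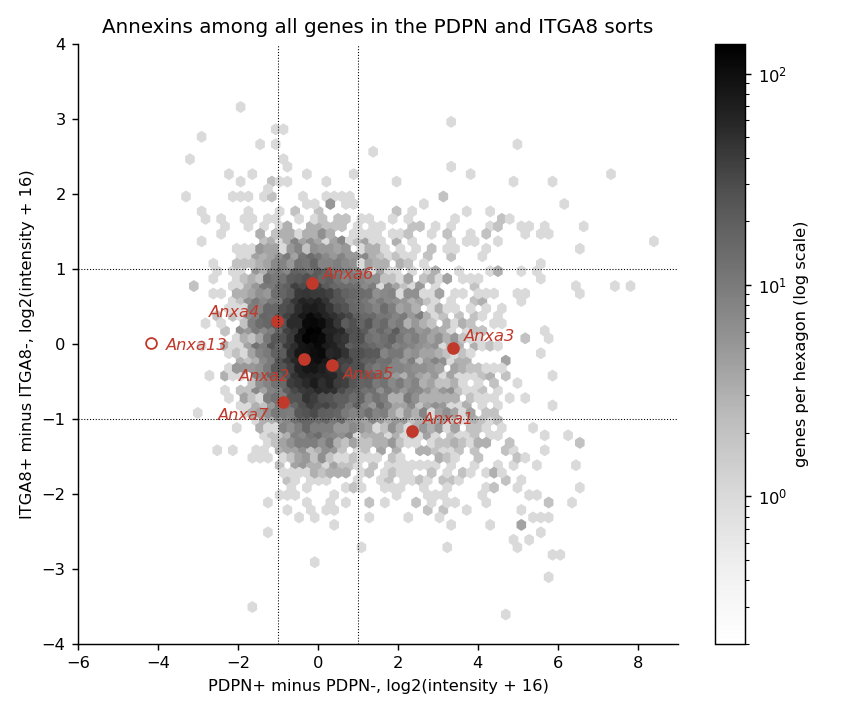
Difference in log2(intensity + 16) in the PDPN sort (horizontal) and in the ITGA8 sort (vertical) for genes above the floor in both, as grey hexagons by number of genes, with annexins in red; the open circle is Anxa13, below the floor in the ITGA8 sort, Anxa8 is left out, and dotted lines mark 2-fold. Anxa1 lies at 2.36 and -1.17, Anxa3 at 3.38 and -0.05, and Anxa13 at -4.18 and 0.02.

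ITGA8+ and PDPN+ cells share an array with each of the sorts above, and their values are set side by side only. Anxa1, at 211 in ITGA8+ and 1667 in PDPN+, was lower in ITGA8+ cells, at -2.89 log2. With the mean of both its probe sets, 1 of them below the floor, the value was -1.14. By the representative probe sets it was the 1 of 7 annexins above the floor that was 2-fold lower, and 0 were higher, where 16.2% of all genes were higher and 14.2% lower. Anxa7 was at -0.91, Anxa5 at -0.77, Anxa3 at -0.72, Anxa4 at -0.66 and Anxa2 at -0.30. Anxa6 was at 0.73 by its representative probe set, and its other probe sets were at -0.74, -0.30 and -0.82. The other Anxa4 probe sets were at -2.44 and -1.84 and a second Anxa7 probe set at -1.46, all past 2-fold, so with the mean of all probe sets Anxa1, Anxa4 and Anxa7 were 2-fold lower in ITGA8+ cells. In this comparison the macrophage sum was 3277 in ITGA8+ and 37890 in PDPN+, and the neutrophil sum 2740 and 31433, of which Mpo made 2532 in ITGA8+. The mesothelial sum was 16678 and 57296, with 10 of 12 markers 2-fold lower, and the erythroid sum 49395 and 8079, with 9 of 9 above the floor higher. The part of these lists in the annexin differences was not tested.

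ALCAM+ cells were set against liver cells relative to the median over all genes, which was 0.90 log2 higher in ALCAM+. On that footing Anxa6 was 3.09-fold higher in ALCAM+ cells, Anxa5 3.08-fold and Anxa3 2.10-fold. The Anxa3 difference was 0.94 log2 with a pseudocount of 64, and that of Anxa6 0.93 with the mean of its probe sets, each just inside 2-fold. Anxa1 was 2.56-fold lower and Anxa7 2.08-fold lower. The Anxa1 call was lost with the mean of both its probe sets, which was at -1.45 log2 but below the floor. The Anxa7 call was lost with a pseudocount of 64 (-0.92), under quantile normalisation (-0.94) and with the mean of its probe sets (-0.51). Anxa2, at 0.65 log2, and Anxa4, at 0.67, were inside 2-fold, and Anxa8 and Anxa13 were below the floor. The other Anxa4 probe sets were at -0.99 and -0.62 relative to the shift, the opposite direction. Thus 3 of 7 were higher and 2 lower, against 15.5% and 11.3% of 10982 genes.

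The intensities behind this were 1072 in ALCAM+ and 173 in liver for Anxa6, 1737 and 289 for Anxa5, and 646 and 153 for Anxa3. Those of Anxa1 were 211 and 295 and those of Anxa7 were 643 and 719. As deposited, without the shift, Anxa1 and Anxa7 were at -0.45 and -0.16 log2, and 5 annexins were 2-fold higher, Anxa2 and Anxa4 joining the 3 above. The rank of a probe set within its own array does not depend on a shift of scale. By rank Anxa5 went from the 79.7 percentile in liver to the 93.0 in ALCAM+, and Anxa6 from 72.2 to 88.4. Anxa1 went from 80.0 to 65.8 and Anxa7 from 90.4 to 82.4. A second Anxa7 probe set, with 588 in ALCAM+ and 327 in liver, was at 0.82 as deposited, so Anxa7 probe sets differed in direction without the shift. Marker sums in ALCAM+ and liver, as deposited, were 13689 and 710 for mesothelial, 27962 and 7559 for megakaryocyte, 10011 and 3769 for macrophage, 2931 and 8223 for neutrophil and 16577 and 38379 for erythroid genes. Relative to the shift 9 of 9 erythroid markers above the floor were 2-fold lower and 10 of 10 mesothelial markers higher; the part of these lists in the annexin differences was not tested.

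Partners of the annexins were taken as a list of 16 genes: S100 proteins that bind annexin tails, the plasminogen system, formyl peptide receptors, and cytosolic binding partners or effectors. A probe set of their own was found for 15. S100a11, whose product binds annexin A1, was measured only together with a predicted gene and was left out. In the PDPN sort 8 of 13 partners above the floor were 2-fold higher in PDPN+ cells and 1 was lower, with a median of 1.54 log2. All genes had a median of 0.04, with 19.9% and 7.89% past 2-fold. Of the 8, S100a4, Fpr2, Dysf and Pla2g4a were below the floor in PDPN- and entered the count through PDPN+ alone. The list was chosen with earlier results of these data known, so the count describes the list and is not a test. The part of the marker sums in these differences was not tested.

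S100a10, the light chain of the annexin A2 complex, read 12358 in PDPN+ and 5157 in PDPN-, with 6875 in ITGA8+ and 9506 in ITGA8-. It was 1.26 log2 units higher in PDPN+ cells while Anxa2 was at -0.36, so 1 subunit of the complex passed 2-fold and the other did not. S100a6, which binds several annexins, read 3711, 228, 664 and 1520 in the same order. Its differences were 3.93 log2 in the PDPN sort and -1.18 in the ITGA8 sort, the same signs as Anxa1. S100a4 read 257 in PDPN+ and 3 in PDPN-, so the size of its difference depends on the pseudocount. Ahnak, a giant scaffold protein held at the membrane by annexin A2 and S100A10, was higher in PDPN+ by 1.67 log2 units.

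The plasminogen activator gene Plat read 1718 in PDPN+ and 219 in PDPN-, with 1749 in ITGA8+ and 1529 in ITGA8-, lowest in PDPN- as Anxa3 was. Plg, the plasminogen gene of hepatocytes, read 1939, 6675, 1552 and 732, highest in PDPN- as Anxa4 was. Its differences were -1.78 log2 in the PDPN sort and 1.07 in the ITGA8 sort. Plgrkt, a plasminogen receptor gene, was at 738 in ITGA8+ and 2197 in ITGA8-, a difference of -1.55 log2.

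Of the formyl peptide receptors, Fpr2 read 248 in PDPN+ and 6 in PDPN-, with 63 in ITGA8+ and 29 in ITGA8-, above the floor in PDPN+ cells alone among the fractions. Fpr1 and Fpr3 were below the floor in all 4 fractions. Pla2g4a, the cytosolic phospholipase A2 that annexins can inhibit in vitro, read 896, 103, 880 and 1120, and Dysf, the membrane repair protein dysferlin, 129, 34, 292 and 281. They were higher in PDPN+ by 2.94 and 1.54 log2 units, both with a PDPN- value below the floor. Pdcd6, Sri and Rasa1, whose products bind annexins A11, A7 and A6, were within 2-fold in both sorts.

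**Figure D4:**
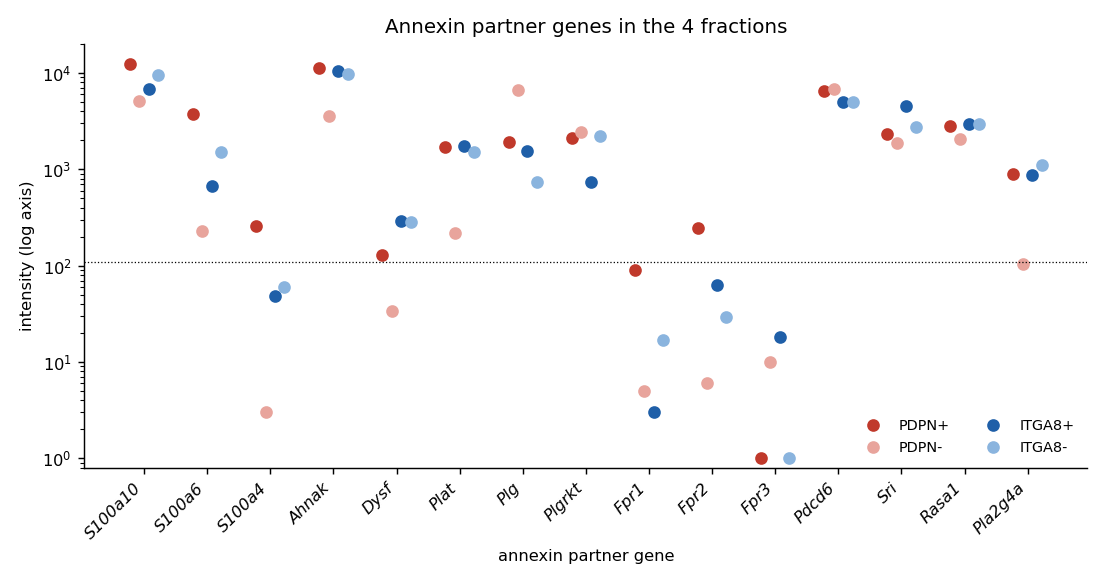
Intensity (log axis) of 15 annexin partner genes in the 4 fractions, 1 point per array, with the floor of 109 as a dotted line. S100a10, S100a6, S100a4, Ahnak, Dysf, Plat, Fpr2, Sri, Rasa1 and Pla2g4a are lowest in PDPN- cells, and Plg, Plgrkt and Pdcd6 are highest there. Of these Sri, Rasa1, Plgrkt and Pdcd6 are within 2-fold between PDPN+ and PDPN-.

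In the ITGA8 sort 1 of 11 partners above the floor was 2-fold higher in ITGA8+ cells (Plg) and 2 were lower (S100a6 and Plgrkt), with a median of 0, against 5.36% and 5.98% of all genes. In ALCAM+ cells against liver, relative to the shift, 4 of 10 were higher, S100a6 by 2.96, Ahnak by 1.76, Plat by 1.63 and Pla2g4a by 1.37 log2 units, and Plgrkt was lower, at -1.09. Over all genes 15.5% were higher and 11.3% lower. S100a6, at 23, Plat, at 45, and Pla2g4a, at 98, were below the floor in liver cells. Between ITGA8+ and PDPN+ cells 1 of 13 partners was higher in ITGA8+, Dysf at 1.09, and 4 were lower: S100a6, S100a4, Fpr2 and Plgrkt, at -2.45, -2.09, -1.74 and -1.51. The shares over all genes were 16.2% and 14.2%. S100a4, at 48, and Fpr2, at 63, were below the floor in ITGA8+ cells, so the sizes of their differences depend on the pseudocount.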

How the data were processed

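The authors deposited 1 table of intensity values, in whole numbers on a linear scale, for 6 arrays; RMA and Partek are named in the submitters' processing notes, without versions. The 64 control probe sets had no values in the 4 fraction arrays. Each column was matched to its sample by title, and each group came from the source label; 20 ng of total RNA was labelled per sample.

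Probe sets naming 1 gene (38011) were kept, with symbols taken through Entrez identifiers from a RefSeq table of GRCm38.p6, which matched 92.1%. Where a gene had several probe sets, the one with the highest mean intensity over the 6 arrays stood for it. Differences, counts and figures were computed with Python 3.11.15, pandas 2.3.3, numpy 2.4.6 and matplotlib 3.10.9, and the counting step was tested on simulated data. The number of arrays, 1 per group, limits the precision. Annexins and their probe sets are all named; nearest profiles are the 3 genes at the smallest Euclidean distance for each annexin spanning 4-fold or more. The members, lists and alternatives (pseudocount, scaling, probe set, floor, fold) were chosen with earlier results of these data known. Protein sequences were not used here.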

Additional observations from a re-analysis of the deposited data

How the results depend on the processing

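The counts of annexins past 2-fold are small, so single genes near the limit move them. Under the 9 alternatives, 56 of 72 counts were within 1.5 times the reported one. The values of single annexins were taken under 6 of them, leaving out those of the floor and the fold. Of these 201 of 216 kept their side of the limit, and no annexin past 2-fold changed sign. In PDPN+ minus PDPN- the lower count of 2 became 1 with quantile normalisation and 1 at 4-fold. In ITGA8+ minus ITGA8- the lower count of 1 became 0 with quantile normalisation, 0 with the mean of all probe sets and 0 at 4-fold. In ITGA8+ minus PDPN+ the lower count of 1 became 3 with the mean of all probe sets (Anxa1, Anxa4 and Anxa7), and the higher count of 0 became 1 with no floor (Anxa13). In ALCAM+ minus liver the higher count of 3 became 5 as deposited, 5 with no floor and 0 at 4-fold. The lower count of 2 became 1 with a pseudocount of 64, 1 with quantile normalisation, and 0 as deposited, with the mean of all probe sets, with no floor and at 4-fold. With no floor the median that serves as the shift fell to 0.47, since it then covers all 20677 genes; otherwise the cause was not tested. Over all genes, quantile normalisation moved the share of higher calls from 71.6% to 59.1% in PDPN+ minus PDPN- and from 47.3% to 61.3% in ITGA8+ minus ITGA8-. No paired analysis was possible because each group has 1 array. Probe sets below the floor, those of Anxa8 among them, cannot be told from background at this signal.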
